A study of Mus musculus with 18 samples.

Results

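Asparagine, serine, mitochondrial one-carbon and proline synthesis was followed through 10 enzyme genes in MIN6 cells exposed to cyclopiazonic acid (CPA). The genes were chosen by name: Asns for asparagine, Phgdh, Psat1 and Psph for serine, Shmt2, Mthfd2, Mthfd1l and Aldh1l2 for the mitochondrial folate pathway, and Aldh18a1 and Pycr1 for proline, which the usual heading of serine and one-carbon enzymes leaves out. All 10 were among the 6929 genes with reads in each of the 18 libraries, so no gene of the 10 was lost to the filter on low values. For Mthfd1l the filter kept 2 of 3 listed isoforms. The choice of the 10 genes used no measured value of these libraries directly, but it was made with earlier results of the same data known.

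MIN6 is a mouse insulinoma line used as a model of the pancreatic beta cell, and CPA inhibits the pump that loads the endoplasmic reticulum (ER) with calcium. Control cells received the vehicle DMSO for 18 h, CPA1 cells 200 µM CPA for 1 h and CPA18 cells 200 µM CPA for 18 h. From each treatment in each of 3 experiments, 1 mRNA-seq library (fragments of polyadenylated RNA) and 1 Ribo-seq library (RNA fragments protected by ribosomes) were sequenced. A 1 h DMSO control was not analysed here, so the 2 CPA times share the same control libraries, and the 1 h comparison also differs in the time spent in DMSO.

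Asparagine synthetase amidates aspartate with nitrogen from glutamine. Serine is made from a glycolytic intermediate in 3 steps by PHGDH, PSAT1 and PSPH. SHMT2 in mitochondria splits serine into glycine and a one-carbon unit. MTHFD2 oxidises this unit, which MTHFD1L then frees as formate or ALDH1L2 oxidises further to carbon dioxide. ALDH18A1 and PYCR1 turn glutamate into proline. Many of these genes are known as targets of ATF4, the transcription factor whose translation rises when the kinase PERK phosphorylates eIF2α under ER stress, and ATF4 acts on them through C/EBP-ATF response elements.

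The promoter sequences show where such an element can be read directly. Of the 10 genes, 9 matched a RefSeq promoter window (GRCm38.p6, 250 bases before to 50 bases from the transcript start), Psat1 with 2 windows, and Aldh1l2 had no entry. The core of the response element, TGATGNAA on either strand, stood in 2 of these 10 windows, those of Asns and Pycr1, and in 3.97% of all 32851 windows. For Asns it began 23 bases before the transcript start, with the second letter group known from this promoter, GTTACA (8.25% of all windows), beginning 3 bases before the start. In Pycr1 it began 103 bases before the start. The E-box CACGTG (7.15% of all windows) was found in 1 member window, that of Aldh18a1, 59 bases before the start. Shmt2 is printed beside them as a gene whose window held none of the 3 letter groups. Capitals mark the matches, and each stretch runs 5′ to 3′ on the gene's strand from 150 bases before the start to 20 bases into the transcript. All 4 genes lie on the minus strand, Asns at chr6:7693190-7693359, Pycr1 at chr11:120643729-120643898, Aldh18a1 at chr19:40588444-40588613 and Shmt2 at chr10:127522425-127522594.
Asns: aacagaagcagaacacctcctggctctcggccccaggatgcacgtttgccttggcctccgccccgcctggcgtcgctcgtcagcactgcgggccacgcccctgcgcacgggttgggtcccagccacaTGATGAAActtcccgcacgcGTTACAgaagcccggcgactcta
Pycr1: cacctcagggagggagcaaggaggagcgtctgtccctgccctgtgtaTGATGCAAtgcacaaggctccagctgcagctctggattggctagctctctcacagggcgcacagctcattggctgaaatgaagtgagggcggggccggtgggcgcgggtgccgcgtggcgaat
Aldh18a1: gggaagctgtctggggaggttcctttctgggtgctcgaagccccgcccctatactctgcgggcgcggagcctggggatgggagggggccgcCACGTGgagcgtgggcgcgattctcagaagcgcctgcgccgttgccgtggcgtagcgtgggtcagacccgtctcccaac
Shmt2: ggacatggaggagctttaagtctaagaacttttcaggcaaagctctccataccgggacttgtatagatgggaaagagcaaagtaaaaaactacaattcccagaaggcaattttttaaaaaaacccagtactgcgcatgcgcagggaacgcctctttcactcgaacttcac
A match is a description of these letters, and factor binding was not measured here.

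Library depth differed. Total counts ran from 520960 to 4755030 in mRNA-seq and from 168129 to 1083297 in Ribo-seq. In Ribo-seq the median fell from 929649 in control to 203108 in CPA18 libraries. The reads of a gene depend on its level as well. Psph, for example, had 7, 5 and 15 reads in control Ribo-seq, 10, 2 and 9 in CPA1 and 8, 11 and 34 in CPA18. The control libraries of experiment 2 carry titles and descriptions that name different assays and were used as titled. All 12 beta cell markers listed were tested, and 11 were lower in CPA18 than in control in each assay (median log2 change −1.56 in mRNA-seq and −1.39 in Ribo-seq, among them Ins1, Ins2, Pdx1 and Mafa), against 7.89% and 6.25% of all genes called lower; without the experiment as a block in the fit 2 were lower in mRNA-seq and 10 in Ribo-seq. Their part in the changes of the enzyme genes was not tested. Of 20 markers of other cell types, 1 passed the filter, Gcg, named after its values were seen, with log2 changes at 18 h of −0.41 (adjusted p = 0.29) in mRNA-seq and −0.51 (adjusted p = 0.0737) in Ribo-seq, and −0.79 (adjusted p = 0.016) and −0.94 (adjusted p = 0.00050) once libraries were centred on the median gene. In such bulk libraries fewer cells of a type and less RNA per cell cannot be told apart.

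After 18 h of CPA the 10 enzyme genes rose together. Transcripts of all 10 were higher than in control, from 2.77-fold for Asns to 7.23-fold for Psph, and all 10 were higher in Ribo-seq, from 1.69-fold for Asns to 8.13-fold for Aldh1l2 (edgeR quasi-likelihood test, adjusted p under 0.05, n = 3). Of all genes, 27.0% were called higher in mRNA-seq and 25.6% in Ribo-seq. The median log2 change of the 10 genes was 2.17 in mRNA-seq against 0.38 for all genes, and 1.76 against 0.42 in Ribo-seq. Their summed level, in RPKM (reads scaled to the length of the transcript and the total of the library), was 231, 333 and 608 in the control mRNA-seq libraries of experiments 1, 2 and 3, and 744, 1730 and 1847 in CPA18. In Ribo-seq the sums were 537, 431 and 645 in control and 1559, 1700 and 1509 in CPA18. In both assays every CPA18 sum lay above every control sum.

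The size of these rises depends on the scale, because the median gene was itself higher at 18 h. Relative to the median gene the log2 changes of the members ran from 1.09 (Asns) to 2.47 (Psph) in mRNA-seq and from 0.34 (Asns) to 2.61 (Aldh1l2) in Ribo-seq. When libraries were centred on their median gene, 10 members were called higher in mRNA-seq (15.4% of all genes) and 8 in Ribo-seq (10.3%), Asns and Mthfd1l no longer passing. Without the experiment as a block in the fit, 5 of 10 members were called higher in mRNA-seq (Phgdh, Psph, Aldh1l2, Aldh18a1 and Pycr1, against 1.43% of all genes), and all 10 in Ribo-seq. The share of all genes called in that Ribo-seq fit is not given. All 3 CPA18 libraries lay above all 3 control libraries for 9 members in mRNA-seq (14.8% of all genes) and for 10 in Ribo-seq (31.0%).

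**Figure D1:**
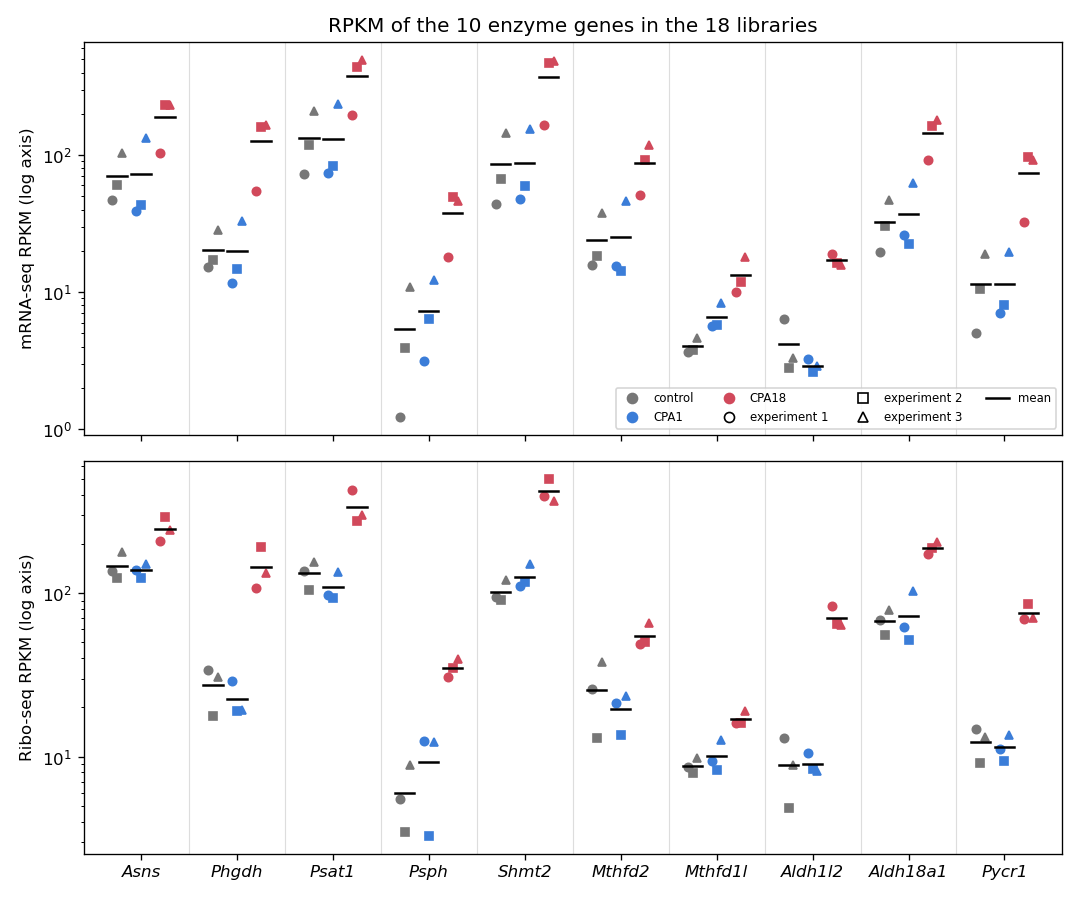
RPKM of each enzyme gene in every library, on log axes, for mRNA-seq (top) and Ribo-seq (bottom). Colours stand for treatments, symbols for the 3 experiments and black lines for means. The CPA18 points stand above all control points of the same gene in both panels, except for Psat1 in mRNA-seq, where 197 RPKM in CPA18 lies under 208 RPKM in control.

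Asns, at chr6:7675165-7693209 on the minus strand with 12 exons (GRCm38), had the smallest rise of the 10 in both assays. Its mRNA-seq level was 47.0, 60.5 and 103.6 RPKM in the control libraries of experiments 1, 2 and 3, 39.2, 43.5 and 134 RPKM in CPA1, and 103.9, 231 and 233 RPKM in CPA18. Its Ribo-seq level was 137, 125 and 179 RPKM in control, 139, 123 and 152 RPKM in CPA1, and 210, 291 and 245 RPKM in CPA18. Control and CPA18 did not overlap in either assay, but in mRNA-seq the highest control and the lowest CPA18 library all but met, while control and CPA1 were interleaved. The log2 change at 18 h was 1.47 ± 0.26 (SE, adjusted p = 5.9e-07) in mRNA-seq and 0.76 ± 0.18 (adjusted p = 0.00044) in Ribo-seq. The Ribo-seq call was lost without experiment 2 (log2 change 0.53, adjusted p = 0.087) with TMM scaling (0.39, adjusted p = 0.10) and with DESeq2 (0.39, adjusted p = 0.21).

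The serine branch rose at each of its 3 steps. Phgdh, which oxidises 3-phosphoglycerate and opens the pathway, lies at chr3:98313171-98339969. It was at 15.4, 17.2 and 28.2 RPKM in control mRNA-seq, at 11.7, 14.8 and 33.0 RPKM in CPA1 and at 54.7, 160 and 164 RPKM in CPA18. Its Ribo-seq values were 33.9, 17.8 and 30.6 RPKM in control, 28.8, 19.1 and 19.3 RPKM in CPA1, and 108, 192 and 133 RPKM in CPA18. Every CPA18 library stood well clear of every other one, and experiment 1 was the lowest of the 3 CPA18 libraries in both assays. Phgdh rose 6.22-fold in mRNA-seq (log2 2.64 ± 0.30, adjusted p = 6.0e-15) and 5.30-fold in Ribo-seq (2.41 ± 0.24, adjusted p = 8.4e-15).

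Psat1, the transaminase of the second step, lies at chr19:15905123-15925059 and has 2 near-identical isoforms whose RPKM were summed. It gave 72.6, 118 and 208 RPKM in control mRNA-seq, 73.6, 83.7 and 237 RPKM in CPA1, and 197, 442 and 492 RPKM in CPA18. In Ribo-seq it gave 137, 104 and 156 RPKM in control, 97.9, 92.9 and 135 RPKM in CPA1, and 427, 278 and 300 RPKM in CPA18. The mRNA-seq groups overlapped, because experiment 3 was high in every treatment, whereas within each experiment CPA18 was higher than control. Its log2 change at 18 h was 1.56 ± 0.25 in mRNA-seq (adjusted p = 5.0e-08) and 1.32 ± 0.17 in Ribo-seq (adjusted p = 5.2e-10).

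Psph, the phosphatase that releases serine, lies at chr5:129765558-129787443 and had the largest transcript rise among the members, the 27th largest of all 6929 genes. It had 1.24, 3.91 and 11 RPKM in control mRNA-seq, 3.14, 6.38 and 12.2 RPKM in CPA1, and 18.1, 49.7 and 46.2 RPKM in CPA18. In Ribo-seq it had 5.49, 3.46 and 8.91 RPKM in control, 12.4, 3.28 and 12.3 RPKM in CPA1, and 30.6, 34.9 and 39.5 RPKM in CPA18. These levels rest on few reads, from 1 read in control mRNA-seq of experiment 1 to 367 in CPA18 of experiment 2, and on 8, 11 and 34 reads in CPA18 Ribo-seq. The CPA18 libraries were nonetheless apart from all others in both assays. The log2 change at 18 h was 2.85 ± 0.37 in mRNA-seq (adjusted p = 1.0e-11) and 2.50 ± 0.41 in Ribo-seq (adjusted p = 4.0e-07).

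The 4 mitochondrial folate enzymes rose as well, in mRNA-seq and in Ribo-seq. Shmt2, which transfers the one-carbon unit of serine to folate in mitochondria, lies at chr10:127517123-127522444. Its mRNA-seq values were 44.2, 67.1 and 145 RPKM in control, 47.4, 59.2 and 155 RPKM in CPA1, and 166, 468 and 488 RPKM in CPA18. Ribo-seq gave 94.2, 91.2 and 121 RPKM in control, 111, 116 and 151 RPKM in CPA1, and 393, 499 and 367 RPKM in CPA18. CPA18 was above all control and CPA1 libraries in both assays, and in Ribo-seq by the widest margin in RPKM of the 4. Shmt2 rose 4.57-fold in mRNA-seq (log2 2.19 ± 0.26, adjusted p = 5.7e-14) and 4.08-fold in Ribo-seq (2.03 ± 0.17, adjusted p = 9.8e-19).

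Mthfd2, the mitochondrial dehydrogenase and cyclohydrolase that follows SHMT2, lies at chr6:83305704-83326011. It measured 15.8, 18.5 and 37.7 RPKM in control mRNA-seq, 15.6, 14.4 and 46.4 RPKM in CPA1, and 51.3, 91.8 and 118 RPKM in CPA18. In Ribo-seq it measured 25.9, 13 and 37.9 RPKM in control, 21.4, 13.5 and 23.6 RPKM in CPA1, and 48.9, 50.0 and 65.4 RPKM in CPA18. Groups did not overlap between control and CPA18, but the gap was narrower in Ribo-seq. The log2 change at 18 h was 1.93 ± 0.29 in mRNA-seq (adjusted p = 6.2e-09) and 1.12 ± 0.28 in Ribo-seq (adjusted p = 0.00078). The Ribo-seq call was lost without experiment 2 (0.84, adjusted p = 0.0530) and with DESeq2 (0.79, adjusted p = 0.090).

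Mthfd1l, the mitochondrial enzyme that frees formate, lies at chr10:3972892-4167081 on the plus strand. Of its 3 listed isoforms, the 2 with reads in all 18 libraries were summed. With these it had the lowest mean level per length of the members at 18 h in both assays. The isoform left out had 0, 10 and 20 reads in control mRNA-seq and 19, 88 and 42 in CPA18. The last place in mRNA-seq therefore depends on the filter. With the 2 isoforms kept, mRNA-seq values were 3.66, 3.79 and 4.62 RPKM in control, 5.64, 5.73 and 8.33 RPKM in CPA1, and 10.1, 11.8 and 18.1 RPKM in CPA18. Ribo-seq gave 8.61, 7.90 and 9.78 RPKM in control, 9.42, 8.29 and 12.7 RPKM in CPA1, and 16.1, 16.1 and 19.1 RPKM in CPA18. All 3 CPA1 libraries were above all 3 control libraries in mRNA-seq, which held for no other member. The share of all genes for which this held is not given. The 1 h change was not called in the edgeR fit (log2 0.72 ± 0.35, adjusted p = 0.69), and control rested on 7, 23 and 41 reads. At 18 h the log2 change was 1.73 ± 0.34 in mRNA-seq (adjusted p = 8.6e-06) and 0.95 ± 0.32 in Ribo-seq (adjusted p = 0.017). The Ribo-seq call rested on 10, 12 and 39 reads in CPA18, and the adjusted p was 0.0522, 0.0886, 0.0950 and 0.0536 without experiment 1, 2 or 3 or the control of experiment 2, with log2 changes of 0.97, 0.93, 0.96 and 0.97. It was lost with TMM scaling (0.59, adjusted p = 0.17) and DESeq2 (0.59, adjusted p = 0.34) as well.

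Aldh1l2, the mitochondrial enzyme that oxidises formyl folate to carbon dioxide with formation of NADPH, lies at chr10:83487447-83534146. It stood at 6.37, 2.82 and 3.31 RPKM in control mRNA-seq, at 3.24, 2.63 and 2.89 RPKM in CPA1 and at 19.0, 16.5 and 15.9 RPKM in CPA18. In Ribo-seq it stood at 12.9, 4.82 and 8.88 RPKM in control, at 10.5, 8.45 and 8.11 RPKM in CPA1 and at 82.9, 64.5 and 64.1 RPKM in CPA18. The CPA18 libraries formed a tight group far above the rest in both assays. It was the member with the largest Ribo-seq change, 8.13-fold (log2 3.02 ± 0.22, adjusted p = 4.0e-23), the 27th largest of all genes, and the only one whose Ribo-seq change exceeded its mRNA-seq change of 4.46-fold (2.16 ± 0.32, adjusted p = 2.1e-09).

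Both proline enzymes rose. Aldh18a1, which reduces glutamate on the way to proline, lies at chr19:40550257-40588463 and had 19.6, 30.6 and 47.3 RPKM in control mRNA-seq, 26.1, 22.6 and 62.2 RPKM in CPA1, and 92.1, 163 and 180 RPKM in CPA18. Its Ribo-seq levels were 68.3, 55.4 and 79.2 RPKM in control, 62.2, 51.9 and 103 RPKM in CPA1, and 174, 188 and 205 RPKM in CPA18. No CPA18 library fell among the control or CPA1 libraries in either assay. The log2 change at 18 h was 2.20 ± 0.26 in mRNA-seq (adjusted p = 5.2e-14) and 1.49 ± 0.18 in Ribo-seq (adjusted p = 1.2e-11).

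Pycr1, the mitochondrial reductase of the last step, lies at chr11:120638998-120643748. In mRNA-seq it had 5.07, 10.6 and 18.9 RPKM in control, 7.09, 8.03 and 19.5 RPKM in CPA1, and 32.3, 97.5 and 91.7 RPKM in CPA18. In Ribo-seq it had 14.8, 9.10 and 13.2 RPKM in control, 11.2, 9.42 and 13.5 RPKM in CPA1, and 69.2, 85.9 and 70.6 RPKM in CPA18. The ranges of control and CPA1 overlapped, and CPA18 lay above both in every library. Pycr1 rose 6.52-fold in mRNA-seq (log2 2.71 ± 0.33, adjusted p = 3.2e-13) and 6.03-fold in Ribo-seq (2.59 ± 0.30, adjusted p = 1.8e-12).

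**Figure D2:**
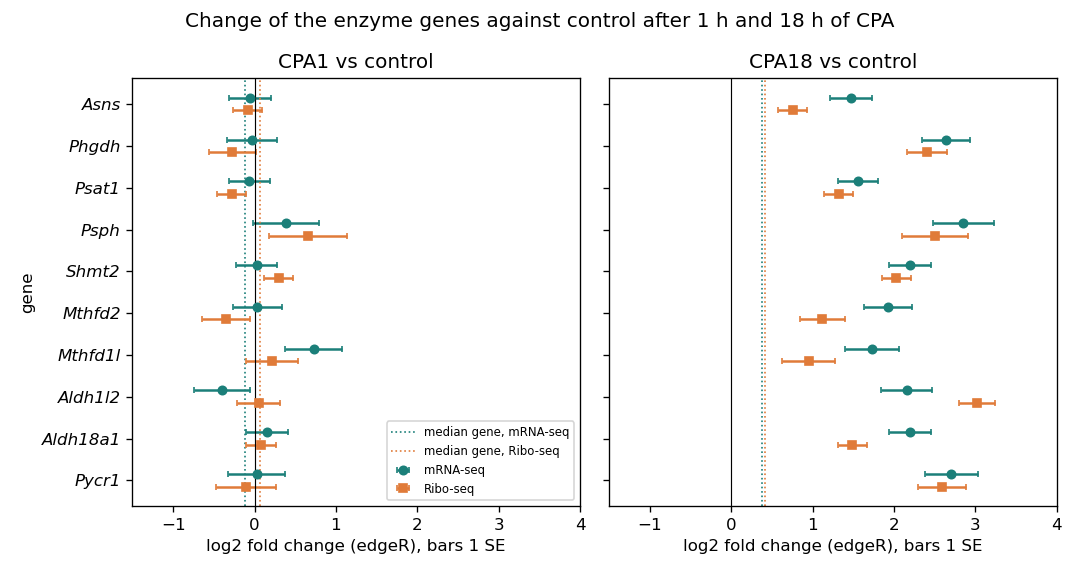
Log2 fold change of each enzyme gene against control after 1 h (left) and 18 h (right) of CPA, from edgeR fits with 3 libraries per group. Circles are mRNA-seq, squares Ribo-seq, bars 1 SE, and dotted lines the median of all genes. At 1 h the points scatter around 0, from −0.40 to 0.72, and at 18 h all lie to the right of the median gene, from 0.76 to 3.02.

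At 1 h no member was called in mRNA-seq, Ribo-seq or ribosome occupancy (edgeR, adjusted p under 0.05), against 0.938%, 6.67% and 0.0866% of all genes. At an unadjusted p under 0.05 the counts were 1 (Mthfd1l), 0 and 0, and DESeq2 called 0 in each, with no adjusted p for Psph and Mthfd1l in Ribo-seq and for these and Pycr1 in occupancy. The log2 changes ran from −0.40 ± 0.34 (Aldh1l2) to 0.72 ± 0.35 (Mthfd1l, adjusted p = 0.69) in mRNA-seq and from −0.36 ± 0.30 (Mthfd2) to 0.65 ± 0.48 (Psph) in Ribo-seq. Their medians were 0.03 and −0.02, beside −0.12 and 0.07 for all genes. The same list of regulators that is described at 18 h further on already held called genes at this time. Of 17 tested genes of an ATF4 and CHOP list, 4 were called higher in mRNA-seq and 9 in Ribo-seq at 1 h. A fit with no block for the experiment called 0 and 9 of them.

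Between 1 h and 18 h all 10 members rose in mRNA-seq (33.8% of all genes were called higher) and 9 in Ribo-seq (18.2%). The median log2 change was 2.11 against 0.50 for all genes in mRNA-seq, and 1.67 against 0.33 in Ribo-seq. Phgdh, for example, differed by 2.67 ± 0.29 in mRNA-seq (adjusted p = 3.1e-16) and 2.68 ± 0.27 in Ribo-seq (adjusted p = 1.2e-14). Mthfd1l had the smallest differences, 1.00 ± 0.31 in mRNA-seq (adjusted p = 0.0051) and 0.74 ± 0.35 in Ribo-seq (adjusted p = 0.11). Its mRNA-seq call was lost without experiment 3 (0.94, adjusted p = 0.10), with TMM scaling (0.52, adjusted p = 0.073) and with DESeq2 (0.54, adjusted p = 0.18), and the Ribo-seq call of Asns (0.84 ± 0.19, adjusted p = 0.00021) was lost with DESeq2 (adjusted p = 0.080). Without the experiment as a block, 4 members were called in mRNA-seq (Phgdh, Psph, Aldh1l2 and Pycr1, against 1.57% of all genes).

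Ribosome occupancy, the Ribo-seq level of a gene divided by its mRNA-seq level, asks whether ribosome signal kept pace with the transcript. At 18 h no member was called against control (0.476% of all genes were, in either direction), 4 had an unadjusted p under 0.05 (Asns, Mthfd2, Aldh1l2 and Aldh18a1), and DESeq2 called 0, without an adjusted p for Psph and Mthfd1l. The change was below 0 for 9 members and above 0 for Aldh1l2. The median log2 change of the 10 was −0.27, beside 0.05 for all genes. Between 1 h and 18 h no member was called either (0.0722% of all genes), 1 had an unadjusted p under 0.05 (Asns, −0.68 ± 0.33, adjusted p = 0.82), and DESeq2 called 0, with an adjusted p for Asns, Psat1, Shmt2 and Aldh18a1 alone.

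Aldh1l2 had an occupancy of 2.03, 1.71 and 2.69 in control, 3.26, 3.21 and 2.80 in CPA1, and 4.37, 3.92 and 4.04 in CPA18. It was higher in CPA18 than in control in all 3 experiments, with no overlap, by a log2 change of 0.87 ± 0.38 (unadjusted p = 0.024, adjusted p = 0.46). For Asns occupancy was 2.91, 2.06 and 1.73 in control and 2.02, 1.26 and 1.05 in CPA18. It was lower in CPA18 in all 3 experiments, but the groups overlapped, since experiment 1 was high in both, and the log2 change was −0.71 ± 0.33 (unadjusted p = 0.034, adjusted p = 0.50).

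Aldh18a1 occupancy was 3.49, 1.81 and 1.68 in control and 1.88, 1.15 and 1.14 in CPA18, a log2 change of −0.71 ± 0.32 (unadjusted p = 0.030, adjusted p = 0.49). Mthfd2 went from 1.64, 0.702 and 1.01 to 0.952, 0.544 and 0.556, a log2 change of −0.79 ± 0.39 (unadjusted p = 0.050, adjusted p = 0.54). Both were lower in CPA18 in each experiment, and in both the groups overlapped through experiment 1. Mthfd1l, with 2.35, 2.08 and 2.12 in control and 1.60, 1.37 and 1.06 in CPA18, was lower in every experiment and did not overlap, with a log2 change of −0.77 ± 0.45 (adjusted p = 0.60). The remaining members changed by −0.30 ± 0.56 (Psph), −0.24 ± 0.39 (Phgdh), −0.23 ± 0.31 (Psat1), −0.15 ± 0.32 (Shmt2) and −0.10 ± 0.43 (Pycr1), each with at least 1 experiment on the other side of 0.

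**Figure D3:**
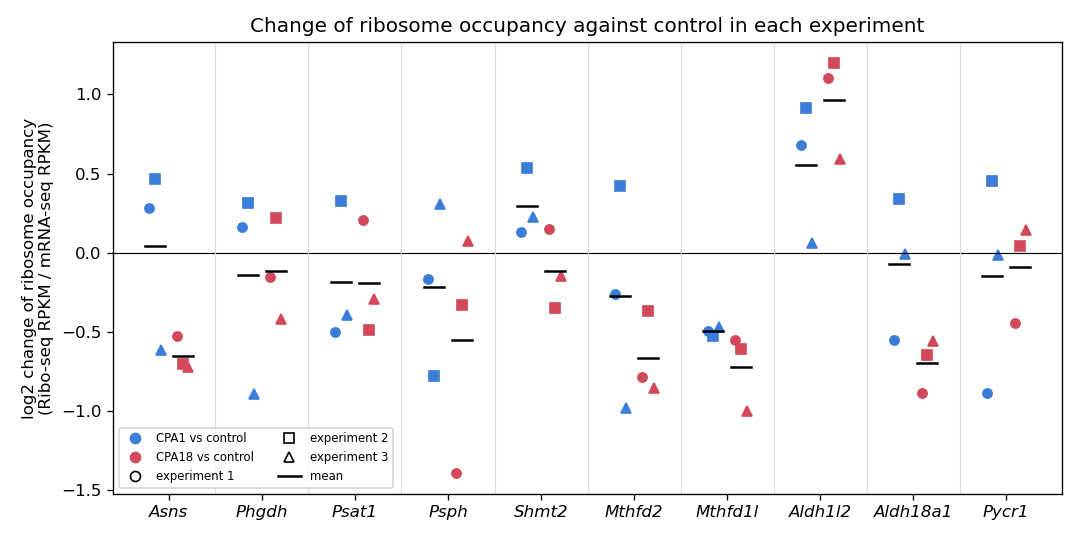
Log2 change of ribosome occupancy (Ribo-seq RPKM over mRNA-seq RPKM) against control in each experiment, after 1 h (blue) and 18 h (red) of CPA, with symbols for the 3 experiments and black lines for means. At 18 h the 3 points of Aldh1l2 lie above 0, from 0.59 to 1.20, and those of Asns, Mthfd2, Mthfd1l and Aldh18a1 below it.

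Levels per length differed widely among the members, but the order at the top depends on how isoforms were counted. The RPKM of Psat1, Shmt2, Aldh18a1 and Mthfd1l are sums over 2 isoforms, and whether a read that fits both was counted for each is not given in the sources used here. For Mthfd1l these are 2 of 3 listed isoforms. The filter left out the other, so the place of Mthfd1l and of the genes near it depends on that too. By mean mRNA-seq RPKM in control the order was Psat1 (133 ± 69.1, SD, n = 3), Shmt2 (85.6 ± 53.0), Asns (70.4 ± 29.6), Aldh18a1 (32.5 ± 13.9), Mthfd2 (24.0 ± 12.0), Phgdh (20.3 ± 6.92), Pycr1 (11.5 ± 6.95), Psph (5.37 ± 5.02), Aldh1l2 (4.17 ± 1.92) and Mthfd1l (4.03 ± 0.521). The neighbours Shmt2 and Asns, Psph and Aldh1l2, and Aldh1l2 and Mthfd1l did not keep their order in every experiment, while the other neighbours did. In control Ribo-seq Asns led with 147 ± 28.8 RPKM, ahead of Psat1 in all 3 experiments (132 ± 26.2). With the mean of the isoforms in place of their sum, an alternative chosen after seeing the data, Asns (70.4 RPKM) came first in control mRNA-seq as well, ahead of Psat1 (66.4) and Shmt2 (42.8), and Aldh18a1 (16.2) fell from the fourth to the sixth place.

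At 18 h, with the kept isoforms summed, Shmt2 led in Ribo-seq with 420 ± 69.6 RPKM, ahead of Psat1 (335 ± 80.5) and Asns (249 ± 41.0), but the order of Shmt2 and Psat1 was not kept in every experiment. Aldh1l2, in the eighth place in control Ribo-seq (8.87 ± 4.06 RPKM), was in the seventh at 70.5 ± 10.8 RPKM, ahead of Mthfd2 (54.8 ± 9.26) by a margin that did not hold in all 3 experiments. Mthfd1l was last at 17.1 ± 1.75 RPKM. With the mean of the isoforms Asns stayed first at 18 h (249 RPKM in Ribo-seq), ahead of Shmt2 (210) and Psat1 (168), and Mthfd1l stayed last (8.55).

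Related isoenzymes, named here from the lists after their values were seen, give a comparison within each reaction. Their RPKM were summed over all transcripts. Their log2 changes, and all values of the members, rest on transcripts read in all 18 libraries. Shmt1, the cytosolic counterpart of Shmt2, stood at 3.70, 7.04 and 9.61 RPKM in control and 5.05, 13.6 and 9.92 RPKM in CPA18 in mRNA-seq, and its Ribo-seq RPKM was 14.3 ± 0.895 in control and 13.1 ± 5.32 in CPA18. The log2 changes were 0.48 ± 0.37 (adjusted p = 0.32) and −0.26 ± 0.41 (adjusted p = 0.67), so Shmt1 was called in neither assay. Mthfd1, the cytosolic enzyme that covers the steps of Mthfd2 and Mthfd1l, was not called in mRNA-seq (0.35 ± 0.31, adjusted p = 0.39).

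In Ribo-seq Mthfd1 had 57.2, 50.8 and 44.7 RPKM in control and 34, 19.3 and 27.7 RPKM in CPA18. All CPA18 libraries were below all control libraries, and the log2 change was −0.87 ± 0.24 (adjusted p = 0.0028), a call that was lost without experiment 2 (−0.71, adjusted p = 0.073). Aldh1l1 and Mthfd2l, the counterparts of Aldh1l2 and Mthfd2, had 8 and 2 reads in all 18 libraries together and were not tested.

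Pycrl, another pyrroline carboxylate reductase, rose by 1.30 ± 0.32 in mRNA-seq (adjusted p = 0.00065; 0.078 without experiment 3) and 1.01 ± 0.37 in Ribo-seq (adjusted p = 0.028; 0.26 with libraries centred). Whether the change of a member differed from that of its relatives was not tested.

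**Figure D4:**
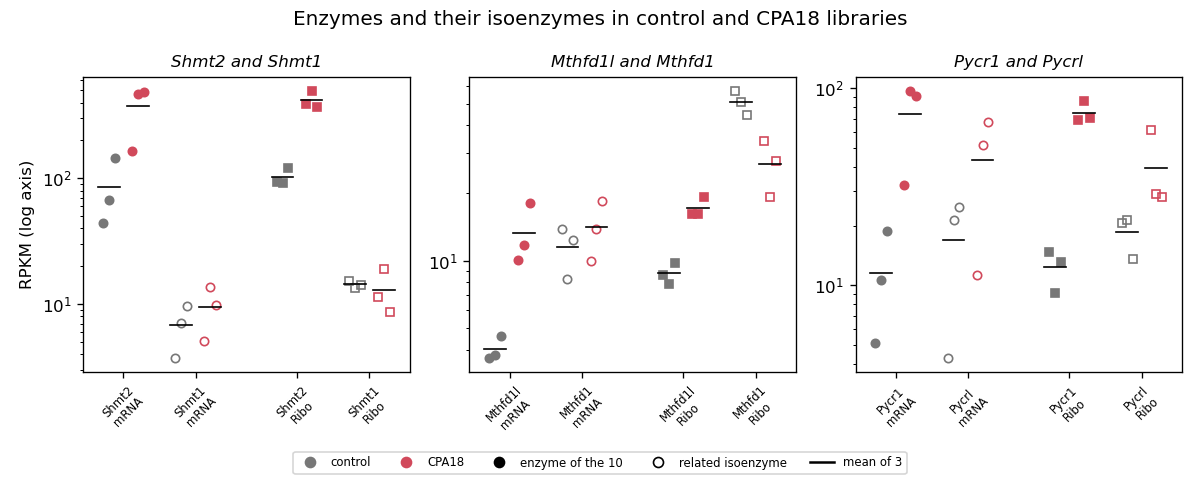
RPKM on log axes in control (grey) and CPA18 (red) libraries for Shmt2, Mthfd1l and Pycr1 (filled symbols) beside related isoenzymes (open symbols), with mRNA-seq as circles and Ribo-seq as squares; black lines are means of 3. Filled symbols sum the transcripts read in all 18 libraries and open symbols sum all transcripts. Control and CPA18 do not overlap for the filled symbols. Among the open symbols they overlap, except that in Ribo-seq CPA18 lies below control for Mthfd1 and above it for Pycrl.

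The neighbouring pathways held genes that rose and genes that fell at 18 h. The counts stand against 27.0% of all genes higher and 7.89% lower in mRNA-seq, and 25.6% and 6.25% in Ribo-seq. In the 5 lists of folate, purine, methionine, other glutamate to arginine enzymes and amino acid transporters, 17.6% to 41.2% of the tested genes were called higher in mRNA-seq and 12.5% to 35.3% in Ribo-seq, on both sides of these shares, and their counts describe the genes and are no result about the lists. In the folate cycle and glycine cleavage list 8 of 22 genes with reads were tested, and 3 were called higher and 1 lower in mRNA-seq (median log2 change 0.59), 1 higher and 1 lower in Ribo-seq (−0.15). Fpgs, which adds glutamate to folates, rose by 2.14 ± 0.53 (adjusted p = 0.00064; 0.051 without experiment 3), and Ggh, which removes it, fell by 1.28 on the log2 scale (adjusted p = 0.0030; 0.10 without experiment 2, 0.16 without its control).

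Of 20 genes of purine and thymidylate synthesis, 8 were called higher and 0 lower in mRNA-seq (median 0.53), and 4 higher and 2 lower in Ribo-seq (0.02). Impdh1, of guanine nucleotide synthesis, rose by 1.43 ± 0.30 in mRNA-seq (adjusted p = 4.3e-05) and 2.03 ± 0.31 in Ribo-seq (adjusted p = 5.9e-08). Ppat, the first committed enzyme of purine synthesis, fell by 0.90 on the log2 scale in Ribo-seq (adjusted p = 0.0023; −0.29 and adjusted p = 0.48 without experiment 3).

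Among 17 genes of the methionine cycle and transsulfuration, 3 were called higher and 2 lower in mRNA-seq (median 0.01), and 4 higher and 2 lower in Ribo-seq (−0.09). The successive enzymes Cbs and Cth moved in opposite directions. Cth, which releases cysteine from cystathionine, rose by 3.91 ± 0.48 in mRNA-seq (adjusted p = 3.4e-13) and 4.36 ± 0.40 in Ribo-seq (adjusted p = 4.0e-17). Cbs, which makes cystathionine, had log2 changes of −1.41 ± 0.33 (adjusted p = 0.00021) and −1.69 ± 0.40 (adjusted p = 0.00044), the mRNA-seq call being lost without the experiment as a block (adjusted p = 0.13).

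Of 18 other glutamate, aspartate, proline and arginine enzymes, 5 were called higher and 1 lower in mRNA-seq (median 0.45), and 6 higher and 1 lower in Ribo-seq (0.35). Gpt2, the mitochondrial alanine aminotransferase, rose by 2.46 ± 0.32 and 1.87 ± 0.31 in the 2 assays (adjusted p = 1.3e-11 and 4.0e-07), and Got1, the cytosolic aspartate aminotransferase, by 2.03 ± 0.28 and 1.84 ± 0.21 (adjusted p = 1.7e-10 and 6.7e-13). Glul, glutamine synthetase, had a log2 change of −1.59 ± 0.20 in Ribo-seq (adjusted p = 1.5e-10).

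Most genes of the ATF4 and tRNA synthetase lists rose. Of 17 ATF4 and CHOP regulators, 16 were called higher in mRNA-seq (median 2.85) and 17 in Ribo-seq (3.31), led by Trib3, a pseudokinase induced by CHOP, Ddit3, which encodes CHOP, and Ppp1r15a, which encodes the eIF2α phosphatase subunit GADD34. Their log2 changes in mRNA-seq were 5.28 ± 0.32, 4.60 ± 0.37 and 4.58 ± 0.29. Atf5 was the 1 gene of all lists called in ribosome occupancy at 1 h, with a log2 change of 2.08 ± 0.37 (adjusted p = 0.00082; 0.11 without experiment 2 or its control, 0.9995 without the experiment as a block).

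Of 20 cytosolic aminoacyl-tRNA synthetases, which charge tRNAs with amino acids, 18 were called higher in mRNA-seq (median 1.39) and 15 in Ribo-seq (0.93). Nars, which charges asparagine, the product of ASNS, changed most, by 2.23 ± 0.27 in mRNA-seq (adjusted p = 2.4e-13) and 2.09 ± 0.18 in Ribo-seq (adjusted p = 3.0e-19). Of 17 amino acid transporters, 7 were called higher and 3 lower in mRNA-seq (median 0.52), and 6 higher and 5 lower in Ribo-seq (0.40). Slc1a4, a carrier of serine and other small neutral amino acids, rose by 2.98 ± 0.30 and 2.54 ± 0.25, and Slc3a2, the heavy chain of several exchangers, by 2.69 ± 0.27 and 2.33 ± 0.17 in mRNA-seq and Ribo-seq.

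These counts changed with the fit. Without the experiment as a block, mRNA-seq calls of higher genes were 1 in the folate list, 0 in the purine list, 1 in the methionine list, 2 among the other glutamate to arginine enzymes, 3 among the transporters, 1 among the synthetases and 13 among the ATF4 and CHOP regulators, and calls of lower genes were 1 among the transporters and 0 in the folate, methionine and other glutamate to arginine lists. With libraries centred on the median gene, 8 synthetases were called higher in Ribo-seq in place of 15, and 15 in mRNA-seq in place of 18. Purine genes called were then 2 higher and 0 lower in mRNA-seq, and 1 higher and 5 lower in Ribo-seq. Centring also turned the median log2 change below 0 for the purine list (−0.39), the other glutamate to arginine enzymes (−0.08) and the transporters (−0.02) in Ribo-seq, and for the methionine list in mRNA-seq (−0.34).

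**Figure D5:**
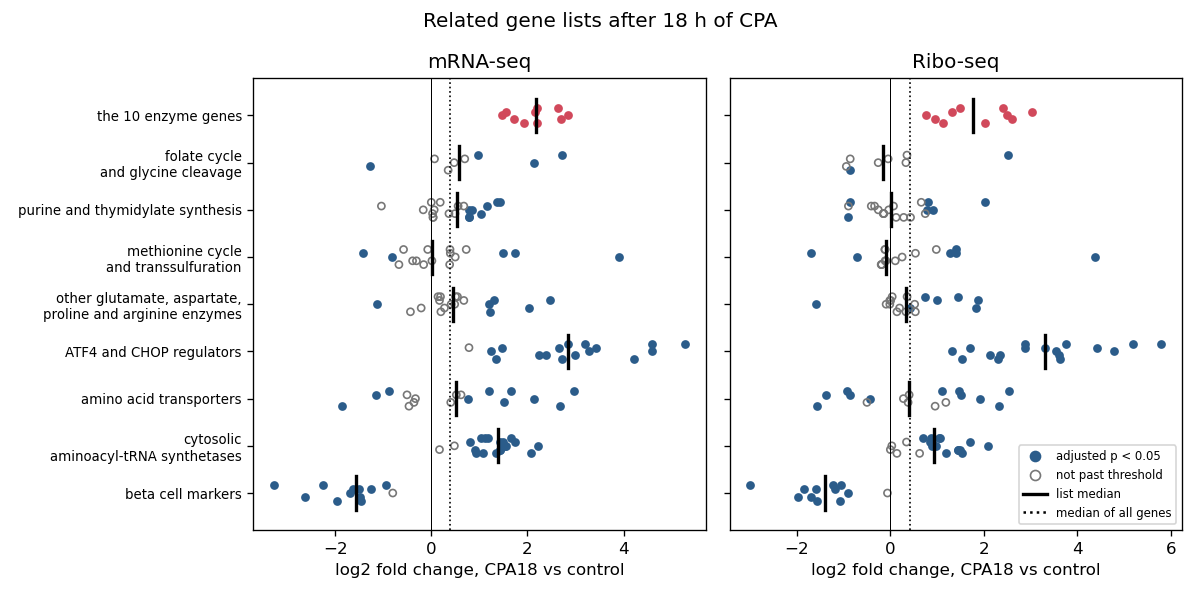
Log2 fold change of each tested gene, CPA18 against control, for the 10 enzyme genes (red) and for related lists, in mRNA-seq (left) and Ribo-seq (right). Filled points passed an adjusted p of 0.05, open points did not, thick lines are list medians and the dotted line is the median of all genes. The 10 enzymes lie between 1.47 and 2.85 in mRNA-seq, to the right of the medians of the folate, purine and methionine lists, and the beta cell markers lie to the left of 0.

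Across the 18 libraries the members followed nearly the same profile. With log2(RPKM + 0.5) centred on the mean of each assay and experiment, each member's Pearson r with the mean of the other 9 ran from 0.903 (Mthfd1l) to 0.994 (Pycr1), with Asns at 0.942 and Aldh1l2 at 0.942. These values describe libraries that share treatments and depths and in which all 10 rose at 18 h, and they are no test. Outside the 10, the genes closest to their mean profile were Got1 (r = 0.991), Fdps (0.991), an enzyme of isoprenoid synthesis, Stbd1 (0.990), a glycogen-binding protein, Lrrc59 (0.989), a ribosome-associated ER membrane protein, and Lonp1 (0.988), a mitochondrial protease. In mRNA-seq at 18 h, Lonp1 rose by 2.48 ± 0.26 and Stbd1 by 3.48 ± 0.33 (adjusted p = 2.0e-17 and 1.0e-20).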

How the data were processed

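The authors kept reads by quality and a length of 15 to 40 bases and aligned them with Bowtie2 to the GRCm38 RNA reference (tool and build also in the submitters' processing notes). They deposited raw counts per RefSeq transcript, with RPKM (scaled to the library total and the transcript length) and the transcript length. Whether a read that fits several isoforms was counted once is not given in the sources used here, which bears on the levels of Psat1, Shmt2, Aldh18a1 and Mthfd1l. Deposited RPKM and values recomputed from counts differed by at most 0.00111 on the log2 scale. Labels gave treatment, assay and experiment, and replicates are independent experiments.

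Of 30741 transcripts, 30232 matched a RefSeq gene with version, 478 without it and 31 not. Counts of the 10163 found in every one of the 18 libraries (1 read or more) were added up per gene, giving 6929 genes. Changes were tested with edgeR's quasi-likelihood test (edgeR 4.0.16, R 4.3.3) on counts, with the total count as library size and the experiment as a block, and occupancy as the interaction of assay and treatment. p-values were Benjamini-Hochberg adjusted over all genes (threshold 0.05). Libraries were paired by the replicate number in the labels. Deviations of libraries of one experiment from the treatment means correlated with a mean r of 0.545 in mRNA-seq (0.109 to 0.736) and 0.138 in Ribo-seq (0.079 to 0.188). The control occupancy profile of experiment 2, as titled, correlated with those of experiments 1 and 3 at r = 0.716 and 0.916 over 1161 genes.

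The members and lists were chosen with earlier results of these data known. Named are all members, up to 3 called genes per list with the largest change (in mRNA-seq and Ribo-seq at 18 h and in occupancy at 1 h; some are left out of the text), the 5 most alike profiles and beta cell markers, and any other gene is marked in the text as chosen afterwards. Alternatives were a fit without the block, TMM, median centring, totals without Ins1, Ins2 and Lars2, DESeq2 1.42.0, limma 3.58.1 on log2(RPKM + 0.5) or log2(RPKM + 1), 2 other filters, and leaving out each experiment or the control libraries of experiment 2. Scripts were tested on simulated data. Reads carry no molecular identifiers, so read numbers by themselves speak to counting error only. The SE and p-values of the fits also take in how much the changes differ between the experiments. Differences in level between the experiments are taken up by the block where it was used, and do not enter them. Promoter windows came from RefSeq (GRCm38.p6). Figures were drawn with matplotlib 3.10.9. Results for 2 genes of the lists are not reported here.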

Additional observations from a re-analysis of the deposited data

Results flagged for a closer look

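The change of the enzyme genes against control differed between 18 h and 1 h of CPA, by the direct edgeR test of CPA18 against CPA1, which share the control libraries: 10 of 10 members in mRNA-seq and 9 of 10 in Ribo-seq had an adjusted p under 0.05. Of all genes, 33.8% were called higher in mRNA-seq and 18.2% in Ribo-seq. The median difference was 2.11 on the log2 scale in mRNA-seq (0.50 for all genes) and 1.67 in Ribo-seq (0.33 for all genes). Mthfd1l was the exception in Ribo-seq (0.74 ± 0.35, adjusted p = 0.11). Without the experiment as a block 4 members were called in mRNA-seq, against 1.57% of all genes called higher. The values are given with the comparison of the 2 times, and no cause was tested.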

How the results depend on the processing

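The called changes of the members, 39 in all, were recomputed under 13 alternatives each. Of these 507 values 476 stayed past the threshold in the same direction, 31 kept the direction but missed the threshold, and 0 turned. Fits without the experiment as a block in place of the paired fit called 5 members in mRNA-seq at 18 h against control and 4 against 1 h, where the paired fit called 10, and in Ribo-seq it changed no count (10 and 9). Among the changes of the members given in the text, those that turned sign under these alternatives were uncalled changes in ribosome occupancy at 18 h against control, of Pycr1 and Shmt2. That of Pycr1 was 0.0123 without the block and 0.0299 with library totals without Ins1, Ins2 and Lars2, and leaving out 1 experiment gave values between -0.251 and 0.0220. For Shmt2 leaving out 1 experiment gave values between -0.285 and 0.000453. The cause was not tested. Leaving out 1 experiment, or the control libraries of experiment 2, the number of members called at 18 h against control was 10 in mRNA-seq and 7 to 9 in Ribo-seq. Shares of all genes are not given for these counts or for the Ribo-seq fits without the block. Low read numbers limit Psph and Mthfd1l in Ribo-seq, where they rest on 8 to 39 reads a library in CPA18. In CPA1 Ribo-seq Psph had 10, 2 and 9 reads, and in control mRNA-seq of experiment 1 it had 1.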
